A study of Mus musculus with 12 samples.

Results

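The immediate-early transcription factors described here are 10 genes, Fos, Fosb, Junb, Jund, Egr1, Atf3, Nr4a1, Ier2, Btg1 and Myc. They were taken by gene symbol from the annotation of the MG_U74Av2 array, out of 8251 genes read by a probe set with 1 symbol. A probe set is the group of short oligonucleotides that reads a transcript, and these genes had 15 of them. Mouse embryonic stem cells were compared in 3 groups on 12 arrays. All cells were clone C2, 1 derivative of the E14tg2a line that carries targeted recognition sites for the endonuclease I-SceI. The controls stayed in phosphate-buffered saline (PBS) without peroxide (n = 3). The low-dose cells were given 100 µM hydrogen peroxide in PBS for 15 min (n = 4), and the high-dose cells 5 mM for 30 min (n = 5). Peroxide-treated cells then spent 1 h in maintenance medium before RNA was taken, so dose and exposure time differ together. For the controls the labels give culture in PBS but no length of time and no separate statement of a return to medium. The labels do not say if replicates came from separate cultures. The p-values therefore set each group difference against the spread among these samples. That spread may be technical and need not hold the variation between separate cultures.

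Immediate-early genes are transcribed within minutes of a signal, from factors already present in the cell, and need no new protein for it. Growth factors in serum, mitogen-activated protein kinases and stress are the classical inducers, and the transcripts are short-lived. FOS and JUN proteins pair as the dimeric factor AP-1, while ATF3 belongs to the same leucine-zipper class and is known as a stress-induced factor. EGR1 is a zinc-finger factor and NR4A1 an orphan nuclear receptor. IER2 is a small nuclear protein, BTG1 restrains proliferation and binds the mRNA deadenylation machinery, and MYC drives growth and ribosome production. In embryonic stem cells MYC is also part of the self-renewal programme maintained by leukaemia inhibitory factor.

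Cyclic AMP response elements (CREs) lie in the promoters of several of these genes and are bound by the CREB and ATF factors. RefSeq promoter windows of build GRCm38.p6 were on hand for 7 of the 10 genes. The 250 bases before each annotated start were searched on both strands. The short CRE motif TGACG was found in 6 of the 7 windows, and in 17.8% of all 32851 windows of the same length. The sequences below are the 200 bases before the start, 5′ to 3′ on the gene's strand, with every short CRE motif (TGACG, or CGTCA where it lies on the other strand) in capitals. Fos and Fosb are shown because they were higher in both treated groups than in the controls. Atf3 and Btg1 are shown because they were higher at the low dose than in both other groups, and Nr4a1 because it was lower after the high dose.
Fos, chr12:85473690-85473889, plus strand: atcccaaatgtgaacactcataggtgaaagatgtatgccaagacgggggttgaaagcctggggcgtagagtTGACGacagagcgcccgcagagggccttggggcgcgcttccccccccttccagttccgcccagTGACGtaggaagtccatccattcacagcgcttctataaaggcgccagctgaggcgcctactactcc
Fosb, chr7:19310046-19310245, minus strand: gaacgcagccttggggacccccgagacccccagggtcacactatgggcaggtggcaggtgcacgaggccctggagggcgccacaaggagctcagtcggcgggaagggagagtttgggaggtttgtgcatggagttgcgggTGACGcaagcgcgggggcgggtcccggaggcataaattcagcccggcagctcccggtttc
Atf3, chr1:191183334-191183533, minus strand: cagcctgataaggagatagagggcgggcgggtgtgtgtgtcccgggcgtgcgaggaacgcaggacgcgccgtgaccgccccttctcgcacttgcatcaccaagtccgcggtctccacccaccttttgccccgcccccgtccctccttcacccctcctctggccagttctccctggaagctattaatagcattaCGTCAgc
Btg1, chr10:96616801-96617000, plus strand: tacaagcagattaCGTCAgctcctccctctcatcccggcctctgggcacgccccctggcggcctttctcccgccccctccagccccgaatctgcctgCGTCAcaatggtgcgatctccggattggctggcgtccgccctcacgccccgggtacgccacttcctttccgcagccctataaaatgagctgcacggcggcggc
Nr4a1, chr15:101266646-101266845, plus strand: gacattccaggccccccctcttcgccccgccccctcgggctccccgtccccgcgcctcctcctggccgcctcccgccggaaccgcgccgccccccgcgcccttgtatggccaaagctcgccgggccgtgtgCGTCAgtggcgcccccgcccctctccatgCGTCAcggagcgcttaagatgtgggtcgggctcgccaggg

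The longer form TTACGTCA, which was added to the search after the sequences were seen, overlaps a short CRE motif in the Atf3 and Btg1 windows and lies in 0.447% of all windows. Its first base is 10 bases before the Atf3 start and 190 before the Btg1 start. The 6-base motif TGACGT, which contains the short one, was in the windows of Fos, Atf3 and Btg1 (6.47% of all windows). The palindrome TGACGTCA (1.55% of all), the AP-1 site TGANTCA (6.75%) and the serum-responsive CArG box (1.47%) were in none of the 7. Those letters are only absent from these windows. The Sp1 site GGGCGG was in 5 of 7 windows (32.7% of all) and TATAAA in those of Fos and Btg1 (12.4% of all). Nr4a1 had 4 short CRE motifs, the most of the 7, of which 2 lie in the stretch printed above. A match is a description of sequence, and binding was not measured.

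**Figure D1:**
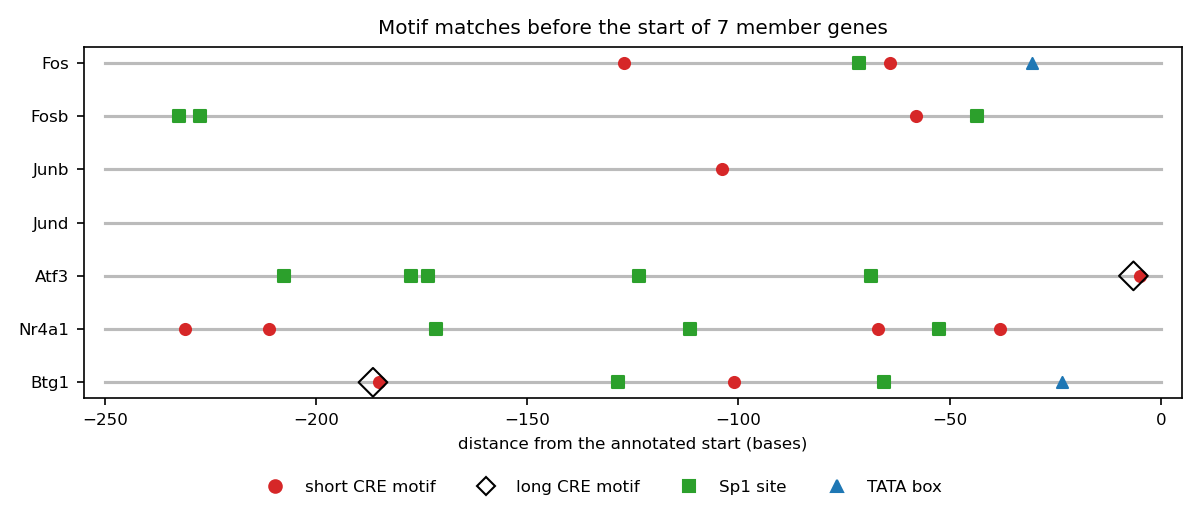
Motif matches in the 250 bases before the annotated start of 7 member genes, by distance from the start in bases. Filled circles are short CRE motifs, open diamonds the long CRE motif found in Atf3 and Btg1, squares Sp1 sites and triangles TATA boxes, and the Jund window holds none of them.

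The cells carried the marks of embryonic stem cells on every array. The 12 pluripotency markers were all on the array and all above the filter on dim probe sets, with summed signals of 29092 to 32307 in the controls, 34755 to 40999 after the low dose and 33732 to 38674 after the high dose. In limma 4 of these 12 were higher and 2 lower at the low dose (median log2 change 0.16). At the high dose 3 were higher and 1 lower (median -0.00). Of these 3 higher calls 1, that of Dppa5a (log2 0.66), became -0.45 after quantile normalization (adjusted p = 0.00526 in limma). Another became 0.24 and did not pass (adjusted p = 0.159 in limma). Of all genes 11.9% were higher and 12.7% lower at the low dose, and 5.36% and 6.84% at the high dose. The sums weight bright probe sets and do not stand for every marker. Primitive endoderm markers were present too, and they moved with the treatments. Of 17 tested, 6 were higher and none lower in limma at the low dose, with a median log2 change of 0.29, where 11.9% and 12.7% of all genes were. At the high dose 1 was higher and 11 were lower, with a median of -2.27, where 5.36% and 6.84% of all genes were. At an unadjusted p under 0.05 the low-dose counts were also 6 and 0. Over all probe sets of the 18 on the array the summed signal was 12899 to 18749 in the controls. It was 18552 to 20048 after the low dose and 13301 to 16082 after the high dose. The sum was carried by Apoe, the 1 marker that was higher at the high dose (means of 5731 in the controls and 12221). Dab2 had the deepest fall, from a mean of 577 to 28.6, and no group mean of a tested marker was at 0, the lowest being that of Foxa2 at 11.3. Of 15 fibroblast (feeder) markers on the array 10 were above the filter, and they summed to 1525 to 1834, 1908 to 2334 and 1525 to 2043 in the same order. The brightest probe set read 7206 to 8904 on control arrays, 14976 to 24225 after the low dose and 19733 to 34685 after the high dose. The ratio of 3′ to 5′ Actb signal, a sign of RNA integrity, had a median of 0.921 in the controls, with 1 array at 1.99, 1.34 after the low dose and 1.21 after the high dose. The part of these shifts in the results below was not tested. In such bulk samples fewer cells of a type and less RNA per cell cannot be told apart.

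Signals are MAS5 intensities, and changes are on the log2(signal + 10.1) scale, where the offset shrinks the change of a dim signal. Each comparison was tested with limma over all 8695 probe sets above the filter, and adjusted p is by the Benjamini-Hochberg method with a threshold of 0.05. Of the 15 probe sets of the members 12 were above the filter, at least 1 for every gene. At the low dose 9 of these 12 were higher than in the controls, where 12.8% of all tested probe sets were, and 1 was lower, where 11.2% were. The median log2 change was 0.98 over the 12 and 0.08 over all. At the high dose 6 were higher (5.68% of all) and 1 lower (6.03% of all), with medians of 0.52 and 0.01. Between the doses 1 was higher at the high dose (12.8% of all) and 4 were lower (14.6% of all), with medians of -0.21 and -0.05. The comparisons with the controls share the same 3 control arrays. Members were chosen with earlier results of these data known, so their counts beside the shares of all probe sets are a description. Scaling each array to a common median lowered the median change of all probe sets by more than 0.1 at the low dose, from 0.08 to -0.09. It moved the share of calls that were higher from 53.2% to 27.7% at the low dose, from 48.5% to 33.6% at the high dose and from 46.7% to 61.8% between the doses. The members then had 6 higher and 1 lower, 5 higher and 1 lower, and 1 higher and 4 lower.

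**Figure D2:**
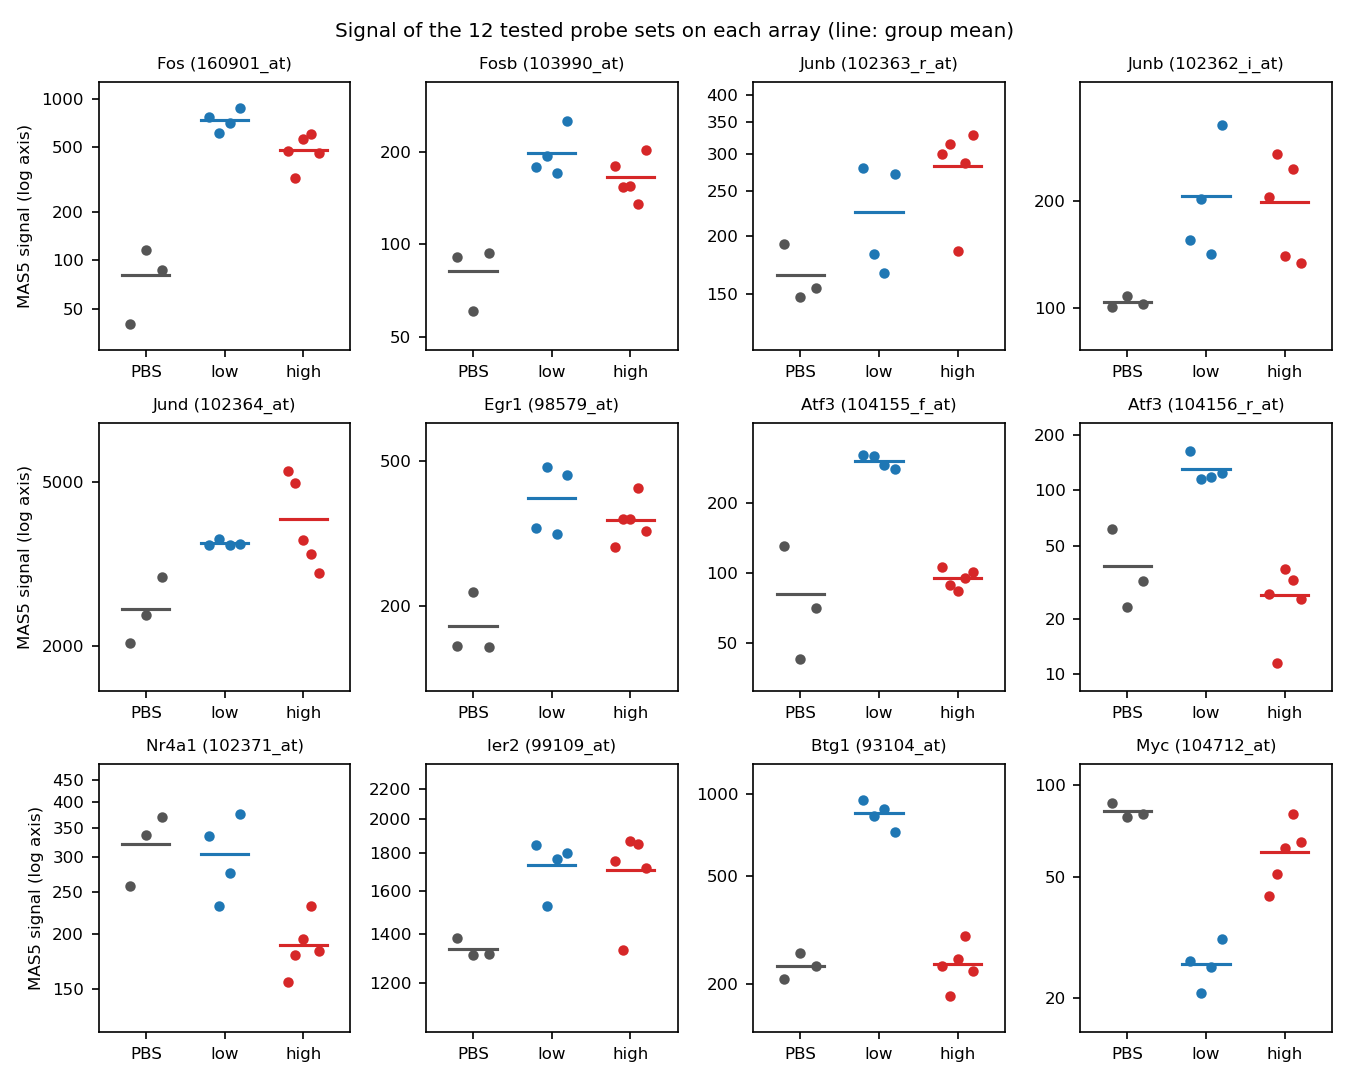
MAS5 signal on a log axis of the 12 tested probe sets of the member genes, with a point for each array and a line at the group mean, for PBS control (n = 3), low dose (n = 4) and high dose (n = 5). All arrays of both doses lie above the controls for Fos, Fosb, Egr1, Jund and Junb 102362_i_at. Atf3 and Btg1 lie above them at the low dose alone. Ier2 does so at the low dose and on all high-dose arrays but replicate 2, and Myc lies lowest at the low dose.

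Fos, which encodes the FOS partner of AP-1, had the largest change of the 10 genes at either dose. Probe set 160901_at read 40.3, 115 and 86.9 on the control arrays. It read 768, 616, 710 and 878 at the low dose. At the high dose it read 476, 322, 560, 605 and 462. All 9 treated arrays were above all controls, and every high-dose array was below every low-dose array. Fos was 8.80-fold higher at the low dose than in the controls, a log2 change of 3.14 ± 0.26 (SE) with an adjusted p of 2.8e-06 in limma. That was the 3rd largest change of all 8695 probe sets. At the high dose Fos was 5.71-fold higher than in the controls, by 2.51 ± 0.25 (adjusted p = 6.2e-06 in limma), the 21st largest. Between the doses the log2 value was -0.62 (95% interval -1.11 to -0.14), and its adjusted p of 0.0525 in limma lay at the threshold. It passed under 8 of 23 alternatives, among them control replicate 1 (0.0107), control replicate 2 (0.0324) or high-dose replicate 4 (0.0407) left out, and was highest at 0.130 without low-dose replicate 4. The log2 value stayed between -0.71 and -0.49 throughout. A dimmer Fos probe set, 161716_at, was below the filter, at 2.26 to 14.5 in the controls, 6.50 to 21.6 after the low dose and 12.3 to 31.9 after the high dose, and its groups overlapped.

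Fosb encodes a second FOS-type partner of AP-1 and rose by less than Fos. Its controls read 90.8, 60.5 and 93.7. The low-dose arrays read 179, 194, 171 and 254, and the high-dose arrays 181, 154, 155, 136 and 203. Both treated groups were clear of the controls and overlapped each other. The rise was 2.29-fold at the low dose (log2 1.20 ± 0.20 SE, adjusted p = 5.33e-04 in limma) and 1.93-fold at the high dose (0.95 ± 0.19, adjusted p = 0.00401 in limma). The doses differed by -0.25 (95% interval -0.61 to 0.11, adjusted p = 0.309 in limma), so a high-dose level from 0.61 below to 0.11 above the low-dose level on this scale is within the error.

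The JUN partners of AP-1 moved less. Junb was read by probe sets whose suffixes mark weaker designs, _i for an incomplete set and _r for relaxed selection rules. Probe set 102362_i_at read 101, 108 and 103 in the controls. It read 155, 202, 142 and 326 after the low dose and 205, 270, 140, 245 and 134 after the high dose. Every treated array was above the controls, with a wide spread inside each treated group. The log2 changes were 0.85 ± 0.27 (SE) at the low dose (adjusted p = 0.0316 in limma) and 0.83 ± 0.26 at the high dose (adjusted p = 0.0498 in limma), and the doses differed by -0.03 (95% interval -0.53 to 0.48). Probe set 102363_r_at read 192, 148 and 155 in the controls, 279, 183, 167 and 272 after the low dose and 299, 314, 186, 286 and 329 after the high dose. On it the low-dose group overlapped the controls (0.40 ± 0.22, adjusted p = 0.198 in limma), and the high-dose change was 0.73 ± 0.21 (adjusted p = 0.0326 in limma). The Junb calls lay near the threshold, and their log2 changes kept their sign and most of their size with any 1 array left out (0.62 to 1.00 and 0.71 to 0.95 for 102362_i_at after the low and the high dose, and 0.65 to 0.86 for 102363_r_at after the high dose). For 102362_i_at at the low dose the adjusted p was 0.0609 to 0.0847 without any 1 of control replicates 1, 2 and 3 and low-dose replicates 2 and 4. At the high dose it was 0.0543 to 0.124 without any 1 of control replicates 1, 2 and 3, low-dose replicates 1 and 2 and high-dose replicates 1, 2 and 4. For 102363_r_at it was 0.0556 to 0.126 without any 1 of control replicates 2 and 3 and high-dose replicates 1, 2, 4 and 5.

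Jund, the JUN-family member that many cells express without a stimulus, was read by a bright probe set at the 98.3rd percentile of mean signal. It read 2036, 2381 and 2945 in the controls. The low-dose arrays read 3509, 3636, 3516 and 3532, a narrow range, while the high-dose arrays read 5318, 4986, 3627, 3344 and 3015. No treated array was at or below a control, although high-dose replicate 5 came close to control replicate 3. The log2 change was 0.55 ± 0.18 (SE) at the low dose (adjusted p = 0.0400 in limma) and 0.70 ± 0.18 at the high dose (adjusted p = 0.0172 in limma), and the doses differed by 0.16 (95% interval -0.18 to 0.50), or -0.06 after quantile normalization. At the low dose the adjusted p was 0.0631 to 0.155 without any 1 of control replicates 1 and 2 and low-dose replicates 1, 2, 3 and 4. For the high dose, leaving out control replicate 1 gave 0.0717 and leaving out control replicate 2 gave 0.0654. Under common-median scaling the low-dose change was 0.36 (adjusted p = 0.224 in limma). Jun itself was below the filter and was not tested. Its probe set read 6.47, 6.50 and 9.84 in the controls, 39.4, 46.5, 15.2 and 56.2 after the low dose and 2.75, 3.11, 22.4, 24.0 and 26.6 after the high dose. All low-dose arrays were above the controls, and the high-dose arrays fell on both sides of them.

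Egr1, the zinc-finger factor induced through the kinase ERK and the serum response factor, rose at both doses. Probe set 98579_at read 156, 219 and 155 in the controls. It read 328, 481, 316 and 456 after the low dose and 291, 347, 346, 421 and 322 after the high dose. The treated groups overlapped each other and neither overlapped the controls. Egr1 was 2.16-fold higher at the low dose (log2 1.11 ± 0.18 SE, adjusted p = 5.77e-04 in limma) and 1.91-fold higher at the high dose (0.94 ± 0.18, adjusted p = 0.00270 in limma). The difference between the doses was -0.18 (95% interval -0.52 to 0.17, adjusted p = 0.456 in limma). A second probe set, 161802_i_at, was below the filter, with signals from 9.82 on a control array to 31.0 on a low-dose array.

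Atf3, the stress-induced leucine-zipper repressor, separated the doses. Probe set 104155_f_at read 131, 43.0 and 70.9 in the controls. It read 320, 318, 292 and 279 after the low dose, and 106, 89.1, 83.8, 94.9 and 101 after the high dose. Every low-dose array was above every other array, while the high-dose arrays lay within the range of the controls. Atf3 was 3.69-fold higher at the low dose than in the controls (log2 1.88 ± 0.24 SE, adjusted p = 9.3e-05 in limma). The high-dose value was 0.31 ± 0.23 (95% interval -0.18 to 0.80, adjusted p = 0.430 in limma), and 0.68 without control replicate 1 (adjusted p = 0.0330 in limma), the control array with the highest signal. Against the low dose the high dose was 2.98-fold lower (log2 -1.57 ± 0.21 SE, adjusted p = 5.2e-05 in limma).

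A dimmer Atf3 probe set, 104156_r_at, showed the same split between the doses. It read 61.4, 23.1 and 32.3 in the controls, 164, 115, 118 and 124 after the low dose and 27.2, 11.5, 37.3, 32.6 and 25.7 after the high dose. The low dose was 2.99-fold above the controls (adjusted p = 0.00172 in limma) and the high dose 3.90-fold below the low dose (adjusted p = 5.2e-05 in limma). Its high-dose value against the controls was -0.38 (95% interval -0.99 to 0.23). Both sets were named for Atf3 through the same sequence record, so they are not independent probes of different transcripts, and the _f suffix marks a set that can read related sequences. Another probe set, 161645_r_at, read 2.87 to 4.52 over all 12 arrays, below the filter.

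Btg1, the antiproliferative gene, had the smallest p of the members between the doses. Its controls read 210, 260 and 233. The low-dose arrays read 950, 827, 882 and 725, and the high-dose arrays 234, 181, 248, 300 and 223. The lowest low-dose array was far above every array of the other groups, whose ranges overlapped. Btg1 was 3.50-fold higher at the low dose than in the controls (log2 1.81 ± 0.16 SE, adjusted p = 3.6e-06 in limma), the 11th smallest p of all tested probe sets. The high-dose value against the controls was 0.01 ± 0.15 (95% interval -0.32 to 0.33), and against the low dose Btg1 was 3.49-fold lower (log2 -1.80 ± 0.14 SE, adjusted p = 2.5e-07 in limma).

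Nr4a1, the orphan nuclear receptor gene, was not raised at either dose. It read 258, 336 and 370 in the controls. It read 335, 232, 275 and 375 after the low dose and 156, 179, 195, 232 and 183 after the high dose. The low-dose range covered that of the controls, and every high-dose array was below every array of both other groups, high-dose replicate 4 by less than the rounding against low-dose replicate 2. The high dose was 1.66-fold below the controls (log2 -0.73 ± 0.18 SE, adjusted p = 0.0142 in limma) and 1.57-fold below the low dose (-0.65 ± 0.16, adjusted p = 0.00680 in limma). The former was not past the threshold when control replicate 2 (0.0661) or control replicate 3 (0.0762) was left out. The low-dose value was -0.08 (95% interval -0.47 to 0.31).

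Ier2, a bright immediate-early transcript, changed little. It read 1380, 1309 and 1313 in the controls, 1846, 1527, 1768 and 1799 after the low dose and 1759, 1330, 1871, 1851 and 1717 after the high dose. The low-dose arrays were all above the controls, and at the high dose replicate 2 alone fell within the control range. The log2 values were 0.37 ± 0.13 (SE) at the low dose (adjusted p = 0.0463 in limma) and 0.34 ± 0.12 at the high dose (adjusted p = 0.0865 in limma), with -0.03 between the doses (95% interval -0.27 to 0.21). The low-dose call was fragile. Its adjusted p was 0.0514 to 0.120 without any 1 of control replicates 1, 2 and 3, low-dose replicates 1, 3 and 4 and high-dose replicates 1, 3, 4 and 5, and the change was 0.18 with a common median. Without high-dose replicate 2 the high-dose value was 0.43 and past the threshold.

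Myc, the growth-promoting helix-loop-helix factor gene, was the 1 member that fell at the low dose. Its probe set read 87.3, 78.3 and 80.4 in the controls. It read 26.6, 20.8, 25.3 and 31.2 after the low dose and 43.4, 51.1, 62.2, 80.4 and 64.7 after the high dose. The low-dose arrays were the 4 lowest of all 12. Of the high-dose arrays replicate 4 lay inside the range of the controls, and the others lay between the low-dose arrays and the controls. Myc was 2.57-fold lower at the low dose than in the controls (log2 -1.36 ± 0.23 SE, adjusted p = 6.25e-04 in limma). The high-dose value was -0.41 ± 0.22 (95% interval -0.87 to 0.05, adjusted p = 0.245 in limma). The high dose was 1.93-fold above the low dose (0.95 ± 0.20, adjusted p = 0.00205 in limma). At a mean signal of 54.3, near the middle of the array, the fold depends on the offset. The low-dose log2 change ranged from -1.67 to -0.89 over the 22 alternatives that could give it and was past the threshold in each.

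**Figure D3:**
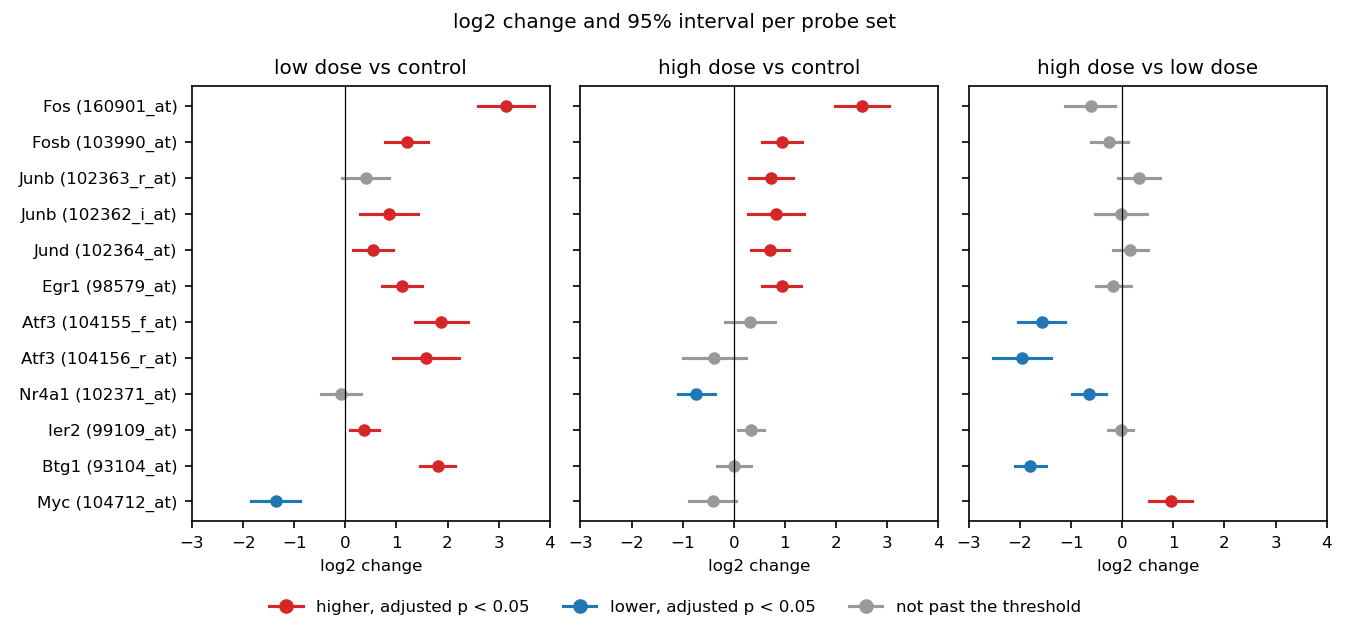
log2 change with its 95% interval for the 12 tested probe sets in each comparison, with higher calls in red, lower calls in blue and values not past the adjusted p threshold in grey. In the comparison between the doses the values of Atf3 (-1.57 and -1.96), Btg1 (-1.80), Nr4a1 (-0.65) and Myc (0.95) are past the threshold.

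The fold between the doses is taken from treated arrays alone, whereas its p also draws on the spread of the controls, whose handling after PBS the labels leave unstated. Atf3, Btg1 and Nr4a1 were lower and Myc was higher at the high dose. Fos was lower on every high-dose array, at an adjusted p of 0.0525 in limma. For Fosb, Egr1, Junb, Jund and Ier2 no difference between the doses passed, with 95% intervals that reach from -0.61 to 0.73 over their probe sets. In the comparisons with the controls, peroxide and the return to medium cannot be told apart.

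Other genes of the pathway were taken from lists by role, with the brightest tested probe set standing for each gene. The lists too were chosen with earlier results of these data known, so their counts are a description. Over all 6414 genes 11.9% were higher and 12.7% lower after the low dose, 5.36% and 6.84% after the high dose, and 13.8% and 15.2% between the doses, with median log2 changes of 0.04, -0.01 and -0.04. The genes named are those of the naming rule whose calls held without each array in turn, with exceptions marked.

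Of 12 tested AP-1 and related leucine-zipper genes 4 were higher at the low dose (33.3%, 11.9% of all genes). None was lower there (12.7% of all), and the median was 0.49. Atf4, which encodes the factor of the integrated stress response, read 1998 in the controls and 3012 at the low dose (log2 0.57, adjusted p = 0.00761 in limma), and its value was 0.38 with a common median (adjusted p = 0.120). Atf5 read 59.1 in the controls and 130 at the low dose (log2 0.99, adjusted p = 0.00430 in limma). Nfe2l2, which encodes the oxidant-responsive factor NRF2, rose by 0.72 (adjusted p = 0.00165 in limma) and was lower at the high dose than at the low dose (log2 -0.61, adjusted p = 0.00126 in limma). At the high dose none was lower (6.84% of all) and 2 were higher (16.7%, 5.36% of all), with a median of 0.26. Of these Creb1, the CRE-binding factor gene, had a log2 change of 1.44 (adjusted p = 0.00481 in limma) on a probe set with a mean of 17.3 in the controls and 59.2 at the high dose. Between the doses 1 was lower (8.33%, 15.2% of all) and none higher (13.8% of all), with a median of -0.16.

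Of 21 tested upstream kinases and serum-response partners 2 were higher at the low dose (9.52%, 11.9% of all genes). At that dose 1 was lower (4.76%, 12.7% of all), and the median was 0.03. At the high dose 1 was higher (4.76%, 5.36% of all) and none lower (6.84% of all), with a median of -0.08. Between the doses 2 were higher (9.52%, 13.8% of all) and 4 lower (19.0%, 15.2% of all), with a median of 0.03. Elk1, a partner of the serum response factor on Egr1 and Fos, rose by 0.92 at the high dose (adjusted p = 0.00646 in limma). It was also higher at the low dose, by 0.77 (adjusted p = 0.0123 in limma). That call is an exception to the naming condition, with an adjusted p of 0.0555 without control replicate 1. The doses differed by 0.14 (adjusted p = 0.595 in limma). Map3k4, a kinase of the stress pathways, had a log2 change of -1.05 at the low dose (adjusted p = 3.56e-04 in limma) and was higher at the high dose than at the low dose by 0.70 (adjusted p = 0.00155 in limma). Map3k7 rose by 0.94 at the low dose (adjusted p = 0.00560 in limma). Elk3, a relative of Elk1, and Araf, a RAF-family kinase gene, were lower at the high dose than at the low dose (log2 -0.92 and -0.70, adjusted p = 0.00728 and 0.00611 in limma).

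Feedback genes of the kinase cascade were few on the array. Of 8 tested, 3 were higher (37.5%, 11.9% of all genes) and 1 lower (12.5%, 12.7%) at the low dose, with a median of 0.36. None passed at the high dose in limma (5.36% and 6.84% of all genes), with a median of 0.08, and 1 had an unadjusted p under 0.05. Dusp1, a phosphatase of these kinases and an immediate-early gene itself, read 531 in the controls, 884 after the low dose and 630 after the high dose. Its low-dose change of 0.77 (adjusted p = 0.0385 in limma) is an exception to the naming condition: the adjusted p was 0.0518 to 0.206 without any 1 of control replicates 1 and 3 and low-dose replicates 1, 3 and 4. Between the doses 1 of 8 was lower (12.5%, 15.2% of all genes) and none higher (13.8% of all), with a median of -0.28. The lower one was Dusp16, at -1.22 (adjusted p = 1.99e-04 in limma). Of the 4 tested EGR, NR4A and corepressor genes none passed at the low dose in limma (11.9% and 12.7% of all genes). The median was 0.20, and 1 had an unadjusted p under 0.05. At the high dose 1 was higher (25.0%, 5.36% of all), with a median of -0.01. Between the doses 1 was lower (25.0%, 15.2% of all), with a median of -0.06. The gene higher at the high dose was Egr2, with means of 20.3 in the controls, 47.0 after the low dose and 52.9 after the high dose. Its high-dose call (log2 1.12, adjusted p = 0.0396 in limma) is an exception as well, with an adjusted p of 0.0524 to 0.178 without any 1 of control replicates 1 and 2 and high-dose replicates 1, 3, 4 and 5.

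Among the other immediate-early genes most calls between the doses were lower at the high dose. Of 32 tested, 12 were higher (37.5%, 11.9% of all genes) and 4 lower (12.5%, 12.7%) at the low dose, with a median of 0.47. At the high dose 2 were higher (6.25%, 5.36% of all) and 4 lower (12.5%, 6.84%), with a median of 0.07. Between the doses 4 were higher at the high dose (12.5%, 13.8% of all) and 15 lower (46.9%, 15.2%). The median was -0.40. Plk2, a polo-like kinase gene, read 863 in the controls, 3227 after the low dose and 887 after the high dose. Klf4, a Krüppel-like factor gene that is also a pluripotency factor, read 1201, 3380 and 1029, and its log2 change between the doses was -1.71 (adjusted p = 5.8e-08 in limma). Ccn2, a secreted matricellular protein gene, read 343, 759 and 160, and Rhob, a small GTPase gene, 99.2, 287 and 173. Cited2, a transcriptional co-regulator gene, was lower at the high dose than at the low dose (log2 -1.60, adjusted p = 5.6e-06 in limma). Socs3, the feedback inhibitor of cytokine signalling, fell at the high dose (log2 -1.13, adjusted p = 3.11e-04 in limma).

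In the MYC network 2 of 12 genes were higher at the low dose (16.7%, 11.9% of all genes) and 3 lower (25.0%, 12.7%). The median was -0.05. None passed at the high dose in limma (5.36% and 6.84% of all genes), with a median of -0.22, and 2 had an unadjusted p under 0.05. Between the doses 3 were higher (25.0%, 13.8% of all) and 3 lower (25.0%, 15.2%), with a median of -0.24. Fbxw7, which encodes the ubiquitin ligase subunit that marks MYC protein for destruction, rose from 73.9 in the controls to 252 at the low dose and read 86.7 at the high dose (low-dose log2 1.65, adjusted p = 2.9e-05 in limma). Mycl, a MYC paralog, rose by 0.95 at the low dose (adjusted p = 8.02e-04 in limma). Ruvbl1, which encodes an ATPase that binds MYC, fell at the low dose (log2 -0.78, adjusted p = 4.57e-04 in limma). Max, the obligate partner of MYC, is given outside the naming rule and did not pass, with means of 387, 279 and 271. Of 18 MYC targets 5 were higher at the low dose (27.8%, 11.9% of all genes) and 4 lower (22.2%, 12.7%). The median was -0.09. At the high dose 3 were higher (16.7%, 5.36% of all) and none lower (6.84% of all), with a median of 0.12. Against the low dose, the high dose had 8 higher (44.4%, 13.8% of all) and 1 lower (5.56%, 15.2%), with a median of 0.16. The targets Odc1 and Srm, enzymes of polyamine synthesis, fell at the low dose (log2 -0.68 and -0.90, adjusted p = 0.00604 and 0.00257 in limma). Nop58, a nucleolar protein gene, and Tert, the telomerase gene, rose at the low dose (log2 0.78 and 0.66, adjusted p = 0.00320 and 0.0121 in limma), with Tert at 0.0528 under a common median. Between the doses Srm and Fbl, a nucleolar methyltransferase gene, were higher at the high dose (0.75 and 0.58, adjusted p = 0.00249 and 7.43e-04 in limma), and Tert was lower (-0.54, adjusted p = 0.0129 in limma). The targets Ncl and Ldha had log2 changes of 1.02 and 0.95 at the high dose and -0.05 and -0.22 after quantile normalization.

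Of 5 genes of the BTG and TOB family and their partners 2 were higher at the low dose (median 0.38), 1 was higher at the high dose (median 0.01), and 1 was higher and 2 lower between the doses (median -0.17). Tob1 read 434 in the controls, 1070 after the low dose and 696 after the high dose (low-dose log2 1.29, adjusted p = 2.05e-04 in limma). Btg2, the closest paralog of Btg1, read 818, 1290 and 692, and between the doses its log2 change was -0.86 (adjusted p = 9.65e-04 in limma).

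**Figure D4:**
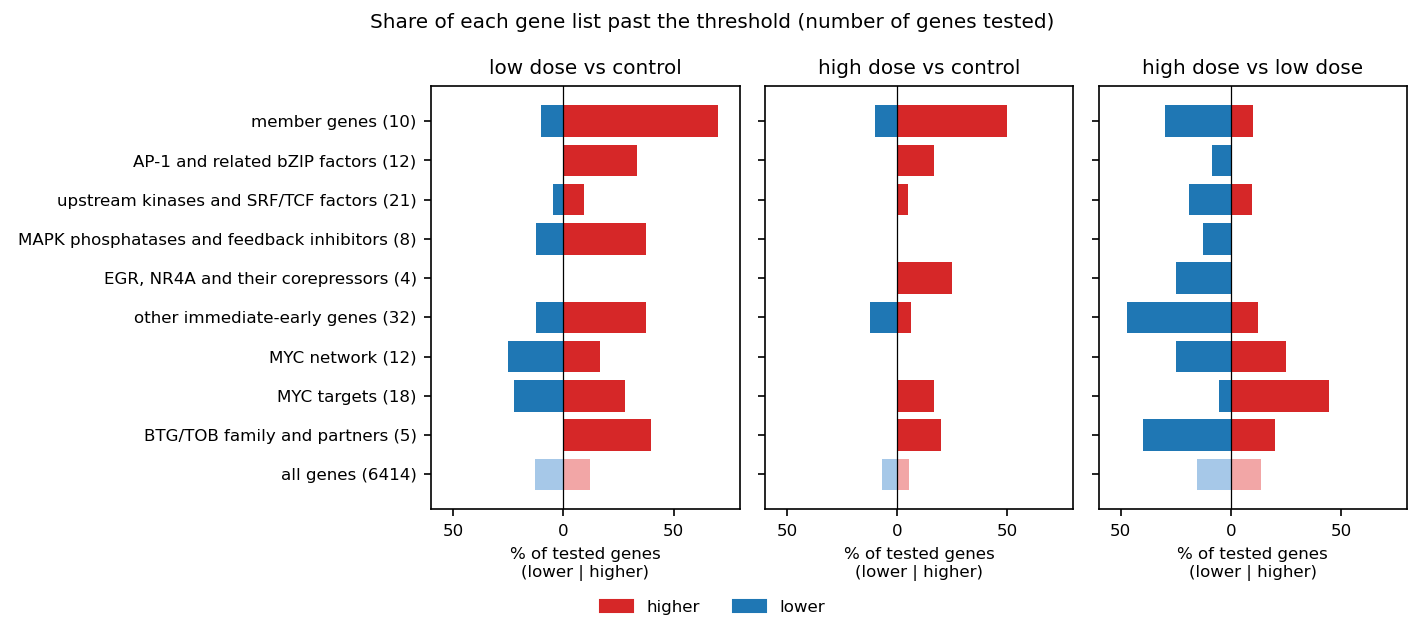
Share of tested genes past the adjusted p threshold in each list, higher to the right in red and lower to the left in blue, for the 3 comparisons, with all 6414 genes in pale colours at the bottom and the number of genes tested in brackets. Of the 32 other immediate-early genes 15 are lower at the high dose than at the low dose (46.9%, 15.2% of all genes). Member genes stand at the top by their brightest probe set, which for Junb is 102363_r_at.

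Genes were also ranked by the likeness of their pattern over the 12 arrays to that of Fos and of Myc, as a description. The arrays share their groups, so any gene that follows the treatments correlates. The highest Pearson correlations of log2 values with Fos were those of Zfp59 (0.947), Fgfr3 (0.931), Slc30a1 (0.926), Tead4 (0.919) and Impact (0.915). Slc30a1, a zinc exporter gene, read 29.3 in the controls, 93.9 after the low dose and 67.3 after the high dose. The highest with Myc were those of Gbx2 (0.959), Tcea3 (0.954), Abcf1 (0.952), AU020206 (0.950) and Plcg2 (0.947). Gbx2, a homeobox gene, read 477, 113 and 322 in that order of groups, the low dose being lowest as for Myc.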

How the data were processed

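Total RNA of 12 samples was read on MG_U74Av2 arrays. The deposited table holds an intensity on a linear scale for each of 12488 probe sets, made by the authors with MAS5, per the submitters' processing notes. No source used here gives the version or the scaling target. Deposited arrays had a mean of 250.1 to 250.2 after trimming 2% at each end, so their scaling was kept. Arrays have no read depth, and their number limits the precision.

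The 66 control probe sets were left out. An offset of 10.1 (the 20th percentile of all values) was added before log2, and the 8695 probe sets with a mean log2 value above the 30th percentile were tested. Differences between the 3 group means came from limma 3.58.1 under R 4.3.3, with the 12 arrays in 1 fit and two-sided eBayes tests with a mean-variance trend. The steps were tested on simulated data. Gene symbols came from the platform annotation, updated by Entrez number through RefSeq records of GRCm38.p6 (10817 of 10833 probe sets with 1 symbol matched; 396 had several and 1193 were not listed).

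Members and lists were chosen with earlier results of these data known. The naming rule takes every member, up to 4 called genes per list and comparison with the largest change, and the 5 genes most correlated with Fos and with Myc. Only genes whose calls held without each array in turn were then named, apart from the exceptions stated, a condition set after the data were seen. Probe sets of the same member are reported separately. Alternatives were quantile normalization, a common median, a floor at the offset, 4 times the offset, no filter, a filter at the 50th percentile, no trend, array weights, only the groups compared, the replicate number as a block, leaving out probe sets with a mean signal above 2000, and leaving out each array.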

Additional observations from a re-analysis of the deposited data

Results flagged for a closer look

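Each of the 15 member probe sets was screened for arrays standing apart within the low-dose and high-dose groups on the log2 scale, 30 screens in all, of which chance flags about 1 in 20, and 3 arrays stood apart. Fos probe set 161716_at, below the filter, read 6.50 on low-dose replicate 1, where the nearest array of that group read 19.0. Junb probe set 102363_r_at read 186 on high-dose replicate 3, where the nearest array read 286. Ier2 read 1330 on high-dose replicate 2, where the nearest array read 1717.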

How the results depend on the processing

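The fits gave 10 called member probe sets at the low dose, 7 at the high dose and 5 between the doses. With 1 array left out these were 7 to 10, 3 to 7 and 5 to 6, the lowest high-dose counts being 3 without control replicate 2 and 4 without control replicate 3. Over all probe sets the counts of 2087, 1018 and 2385 became 1425 to 2133, 493 to 1019 and 1992 to 2550, with 493 without control replicate 2 and 602 without control replicate 3. The high-dose count over all was 1655 with array quality weights and 597 with the replicate block. The block gave 9, 6 and 5 member calls. It took away those of Ier2 at the low dose (adjusted p = 0.0813) and Junb 102363_r_at at the high dose (0.0694) in limma and changed no other member call. The labels do not say that replicate numbers pair the arrays, and 2 of 10 same-numbered pairs deviated together with a correlation above 0.1. Over the member probe sets and all alternatives 751 values stayed on their side of the threshold, 57 lost a call, 11 gained one and none that was called changed sign. The lost calls were those of Junb, Jund, Ier2 and Nr4a1, and the cause was not tested. The gained ones were Fos between the doses, Ier2 at the high dose and Atf3 104155_f_at at the high dose. Among list genes, quantile normalization turned the high-dose values of Ncl from 1.02 to -0.05 and of Ldha from 0.95 to -0.22. That of Dppa5a, a pluripotency marker gene, went from 0.66 to -0.45 and was past the threshold in the other direction (adjusted p = 0.00526 in limma). Jund has no value without bright probe sets, and Myc and Atf3 104156_r_at have none with the filter at the 50th percentile, by construction.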
